A study of Mus musculus with 2 samples.

Results

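Guanylate-binding proteins (GBP) and immunity-related GTPases (IRG) are the 2 main families of interferon-inducible GTPases of mouse macrophages. The 9 genes described here are Gbp2, Gbp3, Gbp5, Gbp7 and Gbp9 of the GBP family and Irgm1, Irgm2, Igtp and Iigp1 of the IRG family. They were chosen by gene symbol, joined to gene and transcript identifiers, and all 9 were found among 55450 annotated genes, of which 21951 were protein-coding. The cells were bone marrow derived macrophages of strain C57BL/6J, primary cells grown from marrow, given Lipid A at 100 ng/ml for 10 min. Lipid A is the part of bacterial lipopolysaccharide that Toll-like receptor 4 senses. Total RNA of a nuclear fraction was sequenced after ribosomal RNA depletion in 2 libraries of 1 group, replicates 1 and 2. One label field calls the fraction nucleoplasmic and others call it nuclear, so a chromatin-bound share of the RNA is not settled. Both libraries carry the same donor identifier with separate biosamples, sex and age were not collected, and separate animals are not stated, so the spread between them may be technical. No untreated cells were analysed here, so none of these levels measures induction.

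GBPs are large GTPases of the dynamin superfamily that assemble on vacuoles holding pathogens and on bacteria in the cytosol, where they take part in caspase-11 and AIM2 inflammasome activation. IRGs are smaller GTPases in mouse cells. Irgm1, Irgm2 and Igtp belong to the regulatory class, which sits on endomembranes of the cell and holds the effector class in check. Iigp1 is an effector, which loads onto the vacuole of Toxoplasma gondii and disrupts it. Genes of both families are induced by interferon gamma and by type I interferon. Type I interferon acts through the interferon-stimulated response element (ISRE), and interferon gamma through the gamma-activated site (GAS) and, by way of IRF1, through ISRE-like elements.

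The promoters of the members were read for these elements because they are the sequences through which interferon acts on both families. RefSeq promoter windows on GRCm38.p6, which run over 250 bases before and 50 bases after the annotated start, were matched for 7 of the 9 members; Gbp9 and Iigp1 had none. The stretches below hold the ISRE core, searched on both strands as GAAA, any 2 bases and GAAA (on the other strand TTTC, any 2 bases and TTTC). Matches are in capitals, and the stretches are written 5′ to 3′ on the strand of the gene. Gbp2 and Irgm1 are shown over 30 bases, since GENCODE places an exon over the match.
Gbp2, chr3:142620594-142620623, plus strand: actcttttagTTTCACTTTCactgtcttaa
Gbp3, chr3:142559977-142560036, plus strand: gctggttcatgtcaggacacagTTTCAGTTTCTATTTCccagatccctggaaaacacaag
Gbp5, chr3:142496744-142496803, plus strand: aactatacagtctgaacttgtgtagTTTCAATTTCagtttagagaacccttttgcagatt
Gbp7, chr3:142530258-142530317, plus strand: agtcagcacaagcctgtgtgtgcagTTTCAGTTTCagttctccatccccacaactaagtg
Irgm1, chr11:48871428-48871457, minus strand: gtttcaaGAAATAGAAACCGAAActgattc
Irgm2, chr11:58214888-58214947, plus strand: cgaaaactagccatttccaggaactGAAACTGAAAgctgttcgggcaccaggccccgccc
Igtp, chr11:58199497-58199555, plus strand: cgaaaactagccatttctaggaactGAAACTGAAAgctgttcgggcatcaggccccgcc

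The ISRE core stood in the window of 7 of 7 members, while 1131 of all 32851 RefSeq windows (3.44%) held it. Counted from the start, its first base lay between -64 and -24 in 6 members and at -165 in Gbp5. Gbp3 and Irgm1 each had 2 overlapping matches. A second RefSeq window of Gbp3, at another start, held neither motif. The GAS core, searched on both strands as TTC, any 3 bases and GAA, stood in 4 of 7 members (Gbp5, Gbp7, Irgm2 and Igtp), against 2726 of all windows (8.3%). No GAS match overlapped an ISRE match. In Irgm2 the GAS match began at -75 and the ISRE match at -64, and in Igtp these positions were -45 and -34. Among 11 other family genes with a window, 7 held the ISRE core and 4 the GAS core. The stretches of Igtp and Irgm2 differed at 2 of 59 bases. Their whole windows were 73.5% identical in a global alignment, and the other pairs of members lay between 46.8% and 53.9%. Such matches describe letters in a window and do not show binding.

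**Figure D1:**
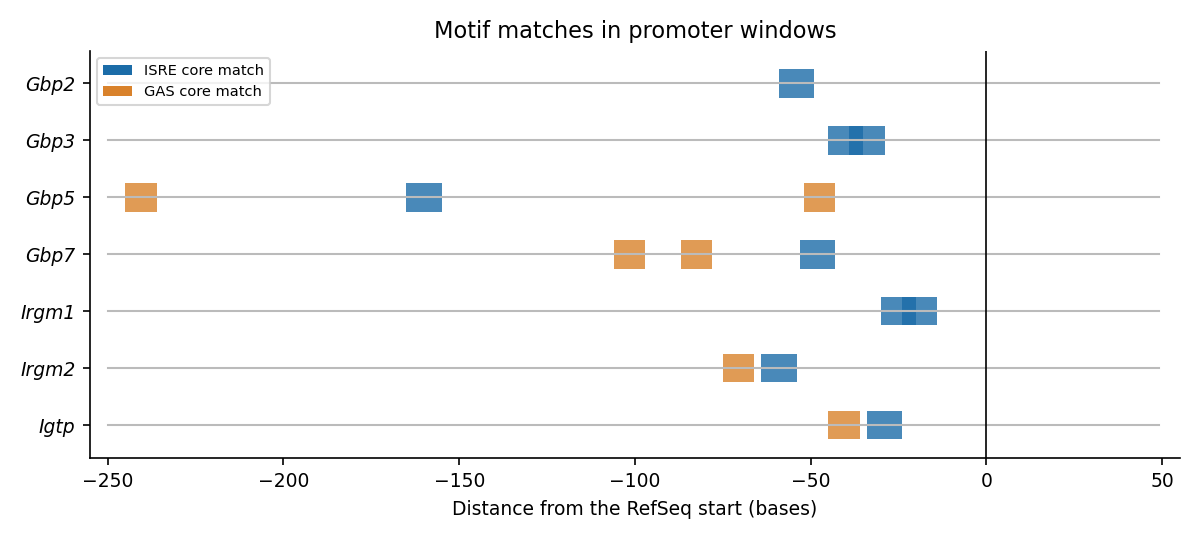
Positions of ISRE core (blue) and GAS core (orange) matches in the RefSeq promoter windows of 7 members, as the distance in bases from the annotated start; each grey line is 1 window. All 7 windows hold an ISRE core match, and 4 hold a GAS core match.

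The members lie in 5 regions of the genome (mm10, GENCODE M21). Gbp5 (ENSMUSG00000105504.4), Gbp7 (ENSMUSG00000040253.15), Gbp3 (ENSMUSG00000028268.14) and Gbp2 (ENSMUSG00000028270.12) follow each other on the plus strand of chromosome 3 within 144 kb, from chr3:142493978 to 142638008. Gbp9 (ENSMUSG00000029298.15) lies apart from them on the minus strand at chr5:105077630-105139539, in the cluster that also holds Gbp4, Gbp6, Gbp8, Gbp10 and Gbp11. Igtp (ENSMUSG00000078853.8) at chr11:58199556-58207591 and Irgm2 (ENSMUSG00000069874.7) at chr11:58199618-58222782 overlap on the plus strand within 23.2 kb. Irgm1 (ENSMUSG00000046879.7) lies on the minus strand of the same chromosome at chr11:48861968-48871683, and Iigp1 (ENSMUSG00000054072.12) on the plus strand at chr18:60376027-60392634.

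All 9 members were detected, meaning at least 1 TPM (transcript abundance scaled by length and to a fixed total for each table) in both libraries. Over the annotation, 13111 of 55450 genes (23.6%) were detected, and 10118 of 21951 protein-coding genes (46.1%). The 9 members held 10901.5 of 19130081 expected counts in replicate 1 and 5996.31 of 11608680 in replicate 2. Their median level was 11.1 TPM, against 10.5 TPM over the detected protein-coding genes. TPM divides counts by effective length to allow comparison between genes, but such comparisons depend on how reads were assigned. A second quantification, described below, gave mean levels of the members 0.494 to 1.06 times as high. All means below are ± SD with n = 2.

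Gbp9, which gathers on Toxoplasma vacuoles in interferon-treated mouse cells, had the highest mean of the 9, with 31.3 TPM in replicate 1 and 37 TPM in replicate 2 (34.1 ± 3.97). It was the one member whose level was higher in replicate 2. It stood at the percentile of 84.2 among detected protein-coding genes. Gbp7, which in mouse interacts with the NADPH oxidase and autophagy machinery, had 16.2 and 13.7 TPM in replicates 1 and 2 (14.9 ± 1.72). Gbp3, a chromosome 3 family member, had 14.5 TPM in replicate 1 and 11.5 TPM in replicate 2 (13 ± 2.17). The ranges of Gbp7 and Gbp3 overlapped, and both lay below either value of Gbp9.

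Gbp2, a prenylated GBP that restricts Toxoplasma and takes part in lysis of bacterial vacuoles, stood at 14.9 TPM in replicate 1 and 7.42 TPM in replicate 2 (11.1 ± 5.26). Gbp5, a prenylated GBP tied to inflammasome activation, stood at 12.5 TPM in replicate 1 and 7.28 TPM in replicate 2 (9.9 ± 3.71). These 2 genes had the widest spread relative to their means, with both values higher in replicate 1. The percentiles of the chromosome 3 genes were 61.8 for Gbp7, 57.3 for Gbp3, 52.1 for Gbp2 and 48 for Gbp5.

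Irgm1, the regulatory IRG needed for resistance to mycobacteria in mice, had 36.7 TPM in replicate 1 and 30.2 TPM in replicate 2 (33.5 ± 4.63, percentile 83.8). Irgm2, a regulatory IRG that restrains caspase-11 in mouse macrophages, had 12.9 and 9.11 TPM in replicates 1 and 2 (11 ± 2.68). Igtp, also called Irgm3 and needed for control of Toxoplasma, had 8.95 and 5.85 TPM in replicates 1 and 2 (7.4 ± 2.19). The value of Irgm1 in each library was above both values of the other regulatory IRGs. Iigp1, also called Irga6, stood at 13.2 TPM in replicate 1 and 8.81 TPM in replicate 2 (11 ± 3.07). The range of this effector overlapped those of Irgm2 and Gbp2 and lay below both values of Irgm1.

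Ordered by mean, the members ran Gbp9, Irgm1, Gbp7, Gbp3, Gbp2, Irgm2, Iigp1, Gbp5 and Igtp. Of the 8 neighbouring pairs in this order, 7 had library ranges that overlapped. The exception was Irgm1 over Gbp7, where the lower value of Irgm1 (30.2 TPM) was above the higher value of Gbp7 (16.2 TPM). By gene TPM, the members formed a pair of higher genes, 1 of each family, and a group of 7 between 5.85 and 16.2 TPM. Within that group the order of neighbours was not larger than the spread. Gene TPM takes in all annotated transcripts, and that of Gbp9 includes a retained intron transcript, Gbp9-203, at 16.1 and 14.7 TPM in replicates 1 and 2. The coding transcript Gbp9-201 alone had 15.2 and 22.2 TPM, so in replicate 1 it was below Gbp7. In the second quantification, a separate transcript table that the authors made from the reads, Gbp9 and Irgm1 were again the 2 highest, at 20 and 18.3 TPM on average, and Igtp was the lowest at 3.7 TPM. Iigp1 moved to the third place there, with 11.6 TPM.

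**Figure D2:**
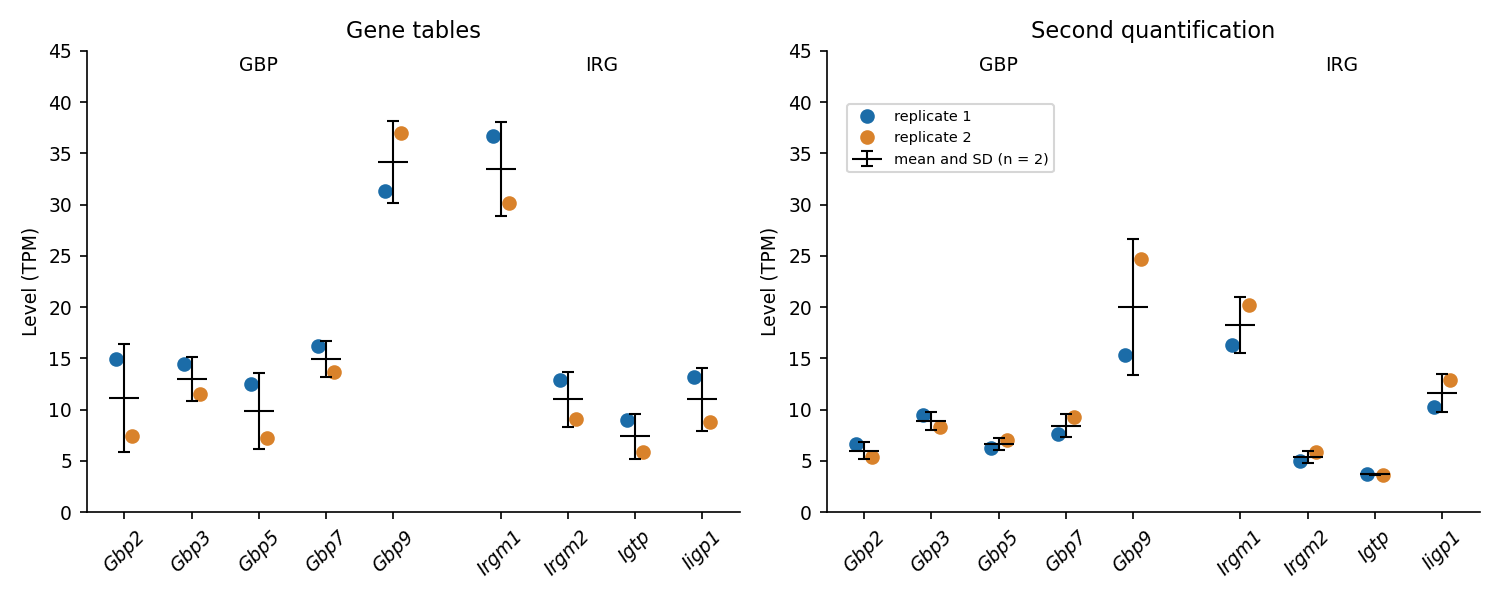
Levels in TPM of the 5 GBP and 4 IRG members in the gene tables (left) and in the second quantification (right); points are libraries (replicate 1 blue, replicate 2 orange) and bars are mean and SD with n = 2. Gbp9 and Irgm1 are the 2 highest members in both panels.

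Summed over members, GBP RNA exceeded IRG RNA in both libraries, with 5 GBP and 4 IRG genes in the sums. Per gene, the mean was 17.9 TPM in both families in replicate 1, and 15.4 TPM for GBP and 13.5 TPM for IRG in replicate 2. The GBP sum was 89.4 TPM and the IRG sum 71.7 TPM in replicate 1, and the sums were 76.8 and 54 TPM in replicate 2. The ratio of the sums was 1.25 and 1.42, a log2 difference of 0.41 ± 0.14. The mean sums were 83.1 ± 8.88 TPM for GBP and 62.9 ± 12.6 TPM for IRG, and the lower GBP sum was above the higher IRG sum. Each family owed much of its sum to 1 gene. Without Gbp9 the GBP sum was 58.1 and 39.9 TPM, and without Irgm1 the IRG sum was 35 and 23.8 TPM. Family sums take in transcripts with no protein-coding annotation. These held 51.4% and 39.9% of Gbp9 TPM in replicates 1 and 2, and 4.35% and 2.72% of Irgm1 TPM. The order of the family sums depended on which genes were counted. With 6 other GBP and 13 other IRG genes added, the sums were 180 and 172 TPM for GBP and 254 and 219 TPM for IRG. This was a log2 difference of -0.43 ± 0.10, so that the IRG sum was then the higher. The larger sums hold more IRG than GBP genes, and levels per gene were not compared for them. The second quantification gave GBP sums of 45.3 and 54.7 TPM and IRG sums of 35.4 and 42.6 TPM, a log2 difference of 0.36. The family medians were 14.9 against 13 TPM in replicate 1 and 11.5 against 8.96 TPM in replicate 2 in the gene tables. In the second quantification they turned, to 7.63 against 7.67 TPM and 8.27 against 9.38 TPM for GBP against IRG.

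The remaining genes of these families showed a wider range than the 9 members. Of 6 other GBP genes 3 were detected. In the gene tables Gbp8 had the highest level of all family genes examined, at 62.9 TPM in replicate 1 and 70.1 TPM in replicate 2. In the second quantification Gbp8 had 24.4 and 43 TPM, below the IRG gene 9930111J21Rik2 at 28.8 and 46.8 TPM. In the gene tables Gbp6 had 18.9 and 17.4 TPM and Gbp4 8.31 and 6.34 TPM, both in the order replicate 1, replicate 2. Gbp2b (also called Gbp1), Gbp10 and Gbp11 stayed between 0.03 and 0.9 TPM. Gbp2b therefore stood far below its chromosome 3 neighbours, whose values began at 7.28 TPM.

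Of 13 other IRG genes 10 were detected. The highest were 9930111J21Rik2, also called Irgb5, at 50.5 and 53.6 TPM in replicates 1 and 2, and 9930111J21Rik1 at 45.6 and 39.2 TPM. Gm5431 had 21.8 and 17.4 TPM, and Ifi47, also called Irgd, had 17 and 11.3 TPM. In the gene tables these 4 genes, and also Gm4951 with a mean of 11.6 TPM, were above Irgm2, Igtp and Iigp1 by mean. In the second quantification Iigp1 had a mean of 11.6 TPM. By mean, Gm5431 (9.3 and 11.6 TPM), Ifi47 (11.3 and 10.4 TPM) and Gm4951 (7.53 and 9.93 TPM) were below it there, and the 9930111J21Rik genes stayed above it. In the gene tables Gm4951 had 13.1 and 10.1 TPM, Gm12250 (Irgb10, annotated as a processed pseudogene) 10.2 and 9.26 TPM, and Tgtp2 10.2 and 7.3 TPM. F830016B08Rik had 5.43 and 9.19 TPM, Irgq 5.13 and 4.41 TPM, and Gm12185 2.01 and 2.04 TPM. Tgtp1, Gm4841 and Irgc1 stayed between 0.09 and 0.81 TPM in the gene tables. The second quantification put Tgtp1 at 1.37 and 1.79 TPM and Gm4841 at 3.41 and 5.13 TPM, above the detection limit of 1 TPM. It put Tgtp2 at 15.7 and 14.7 TPM. In the gene tables, the uncertainty that read assignment gave Tgtp1, which has the near-copy Tgtp2, was 23.7% and 28.6% of its count. All 3 very large inducible GTPases were detected: Gm4070 at 52.1 and 37.1 TPM, Gvin1 at 35.8 and 34.1 TPM, and Gm1966 at 5.49 and 5.96 TPM.

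**Figure D3:**
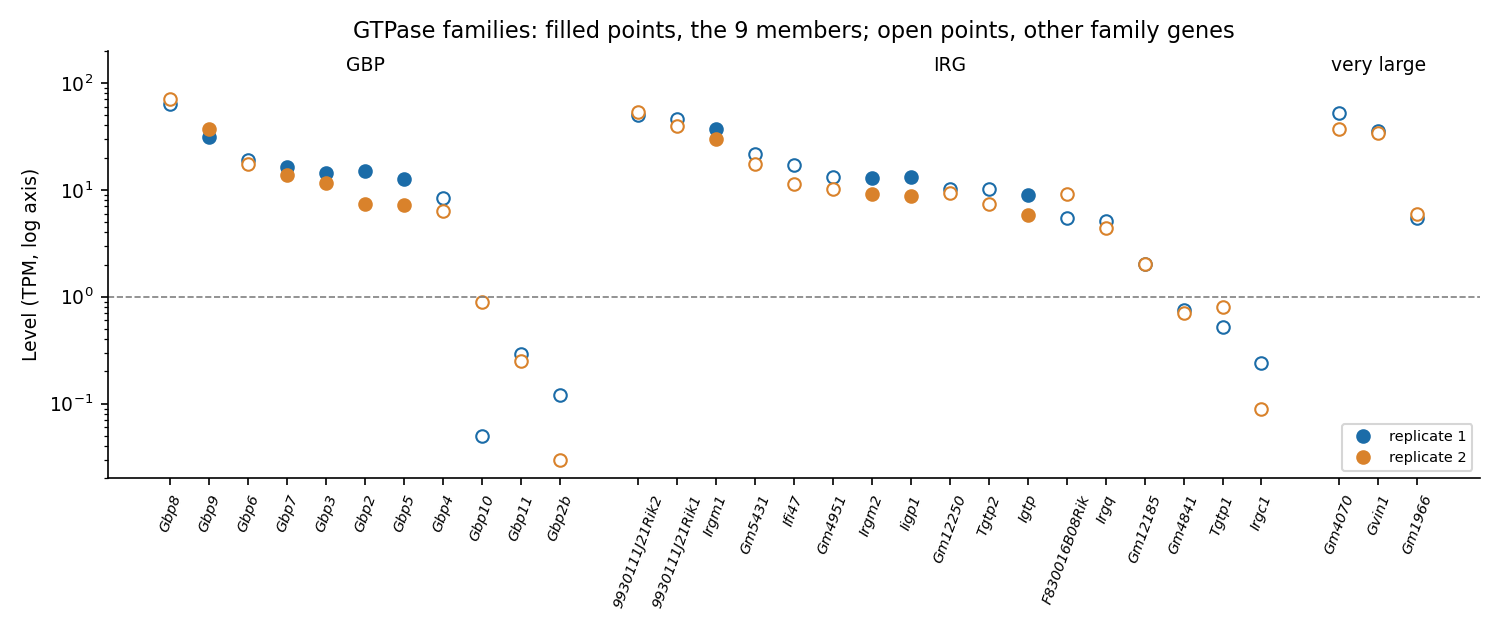
Levels in TPM on a log axis of the GBP, IRG and very large GTPase genes, ordered by level within each family; filled points are the 9 members and open points other family genes, blue for replicate 1 and orange for replicate 2. The dashed line is the detection limit of 1 TPM, which 3 other GBP and 3 other IRG genes do not reach in the gene tables.

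The annotated transcripts over which reads were assigned split the members into 2 kinds. For 6 of the 9 (Gbp2, Gbp3, Gbp7, Irgm1, Irgm2 and Igtp), transcripts with no protein-coding annotation held at most 4.35% of the gene's TPM in either library. For Gbp5, Gbp9 and Iigp1 they held 28.5% or more. The median over the 9 members was 2.27% in replicate 1 and 0% in replicate 2, against 28.9% and 29.7% over detected protein-coding genes. Gbp7, Irgm2 and Igtp have only protein-coding transcripts in the annotation used, so their share could not exceed 0%. The low median thus depends in part on which transcripts are annotated, and a difference in the RNA itself was not tested. GBP members had a median of 1.14% and IRG members of 1.77% over the 2 libraries. By the second quantification the median over members was 4.05%.

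Gbp9-203, a retained intron transcript, held 51.4% of Gbp9 TPM in replicate 1 and 39.9% in replicate 2, and the coding transcript Gbp9-201 held the rest. In levels, Gbp9-203 had 16.1 and 14.7 TPM and Gbp9-201 had 15.2 and 22.2 TPM in replicates 1 and 2. In the gene tables, then, Gbp9-201 was higher and Gbp9-203 lower in replicate 2. The second quantification gave Gbp9-203 5.51 and 7.93 TPM and Gbp9-201 6.71 and 15.9 TPM in replicates 1 and 2, so that both were higher in replicate 2 there, before centring. In Gbp5 the retained intron transcript Gbp5-205 held 28.9% and 29.6%, a close match between libraries. Its nonsense-mediated decay transcripts were assigned differently: Gbp5-202 held 17.9% in replicate 1 and 7.84% in replicate 2, and Gbp5-203 0% and 15.7%. The coding transcript Gbp5-201 held 53.2% and 46.9% in the 2 replicates.

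In Iigp1 the non-coding share was of processed transcripts: Iigp1-205 held 24.7% in replicate 1 and 18.9% in replicate 2, and Iigp1-203 13.5% and 9.52%. Among the coding transcripts, Irgm1-202 held 68.7% and 73.7% of Irgm1, and Irgm1-201 27% and 23.6%. By the second quantification Irgm1-202 held 42.3% and 54%, so the split between the coding forms was not the same in the 2 quantifications. Gbp2-201 held 98.3% and 100% of Gbp2, and Igtp-201 held 94.1% and 81.7% of Igtp. Gbp3-202 held 90% of Gbp3 in replicate 1 and 56.8% in replicate 2, which left its other coding forms unsettled.

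**Figure D4:**
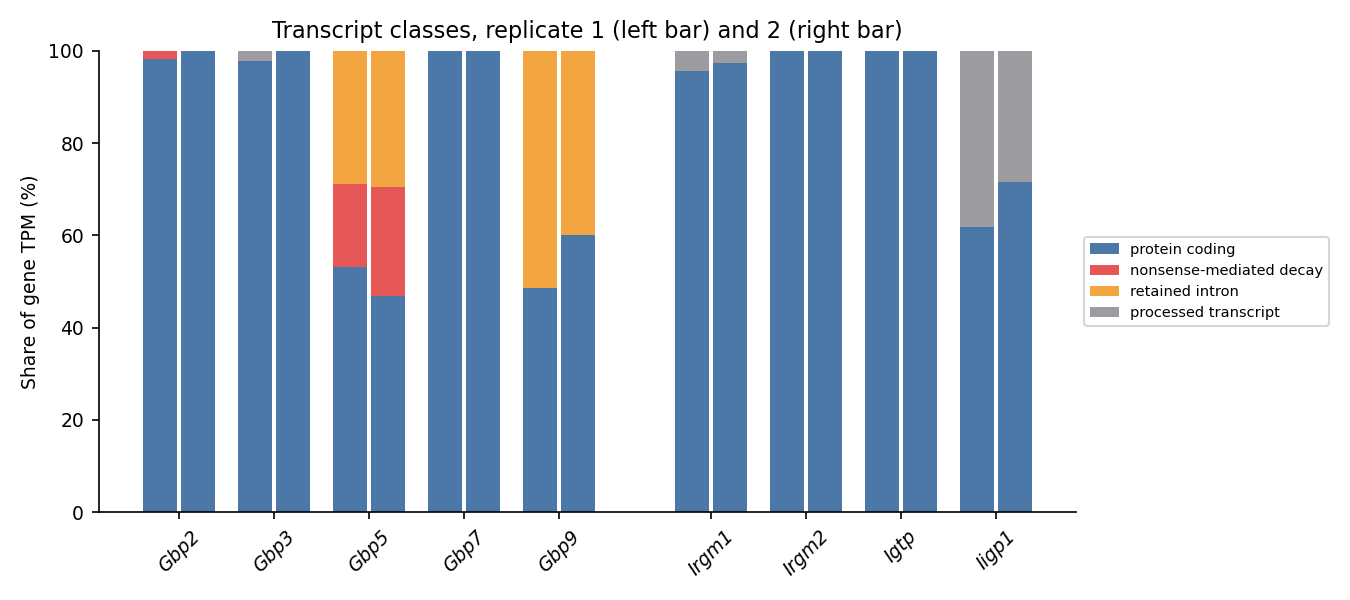
Share of each member's TPM (percent) assigned to protein coding, nonsense-mediated decay, retained intron and processed transcripts, with replicate 1 as the left bar and replicate 2 as the right bar. Gbp5 and Gbp9 carry retained intron shares of 28.9% to 51.4%, and Iigp1 carries processed transcripts.

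Paralogs share sequence, and how far that touched the counts was read from the posterior SD of the count that the authors deposited. This SD was 0 in both libraries for Gbp2, Gbp3, Gbp5, Irgm1 and Iigp1, 5 of 9 members (55.6%), as for 68.3% and 70.9% of detected protein-coding genes in replicates 1 and 2. The largest was that of Gbp7, 11.3 and 6.27 counts, or 0.639% and 0.677% of its count. Gbp9 had 0.32 and 0.47 counts. Irgm2 and Igtp had the same SD, 1.07 counts in replicate 1 and 0.65 counts in replicate 2. For these 4 genes the SD was less than 1% of the count. The SD describes 1 model of read assignment and does not bound the difference from the second quantification. There the scaled counts of the same 4 genes stood between -0.29 and -0.11 on the log2 scale relative to the first. Of the genes with an SD of 0, Iigp1 stood at 0.71 and 0.85 and Gbp5 at -0.01 and 0.30 in replicates 1 and 2. Gbp2, Gbp3 and Irgm1 lay between -0.28 and -0.02. Assignment between transcripts of 1 gene was less certain: for the most abundant transcript of a member the SD was 0.545% to 19.9% of its count, highest for Gbp3-202 in replicate 2.

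Words of 50 bases in the annotated transcripts show where reads could be shared. Gbp7 had 12.7% of its words in common with another gene, chiefly Gm43802, a processed pseudogene that shares 637 exonic bases with it on the same strand (4.28 TPM in replicate 1 and 1.21 TPM in replicate 2). Igtp had 11.8% and Irgm2 6.79% in common with each other, with 162 exonic bases in both. Gbp9 shared 8.05%, of which 4.42% were with Gbp8, and Gbp9 has 60 exonic bases in common with each of Gbp8 and Gbp4. The remaining 5 members shared between 0.379% (Irgm1) and 3.75% (Gbp3). Gbp2 overlaps Mir6381 over 24 bases on the opposite strand. No source used here gives the strand handling, so this overlap is uncertain, and Mir6381 was at 0 TPM in both libraries.

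Of the 9 members, 8 were higher in replicate 1 than in replicate 2, once each difference was taken relative to the median gene (0.10 on the log2 scale). Of all detected protein-coding genes, 4960 of 10118 (49%) were higher in replicate 1. The differences, replicate 1 minus replicate 2 in log2(TPM + 1), had a median of 0.36 over the members, 0.22 over GBP and 0.39 over IRG, against -0.01 over detected protein-coding genes. The central 95% of those genes lay between -0.59 and 0.79. Gbp2, at 0.81, was above that range, and the other 8 members lay inside it. On this centred scale none of the 9 was more than 2-fold higher in either library, as were 1.16% of detected protein-coding genes in replicate 1 and 0.267% in replicate 2.

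Counting error alone was narrower than several of these differences. On counts scaled by TMM, an edgeR scaling that sets aside genes far apart between libraries, Gbp2 was 1.82 times as high in replicate 1 as in replicate 2, with an exact 95% interval of 1.58 to 2.11. Gbp5 followed at 1.6 (1.41 to 1.83), then Igtp at 1.44 (1.18 to 1.75) and Irgm2 at 1.31 (1.17 to 1.47). Iigp1 had 1.26 (1.1 to 1.45), Gbp3 1.16 (1.03 to 1.32), and Gbp7 and Irgm1 1.14 each. Gbp9 alone was lower in replicate 1, at 0.798 (0.757 to 0.842). These intervals cover counting error only and hold for these libraries. The interval of TPM in the deposited tables gave the same separation for Gbp2, 13.2 to 15.5 in replicate 1 and 6.19 to 8.25 in replicate 2, and for Gbp9, 29.1 to 31.6 and 33.1 to 36.2. These bounds surround the posterior mean TPM, 30.3 and 34.6 for Gbp9, and not the level given above, which for replicate 2 lies outside them.

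**Figure D5:**
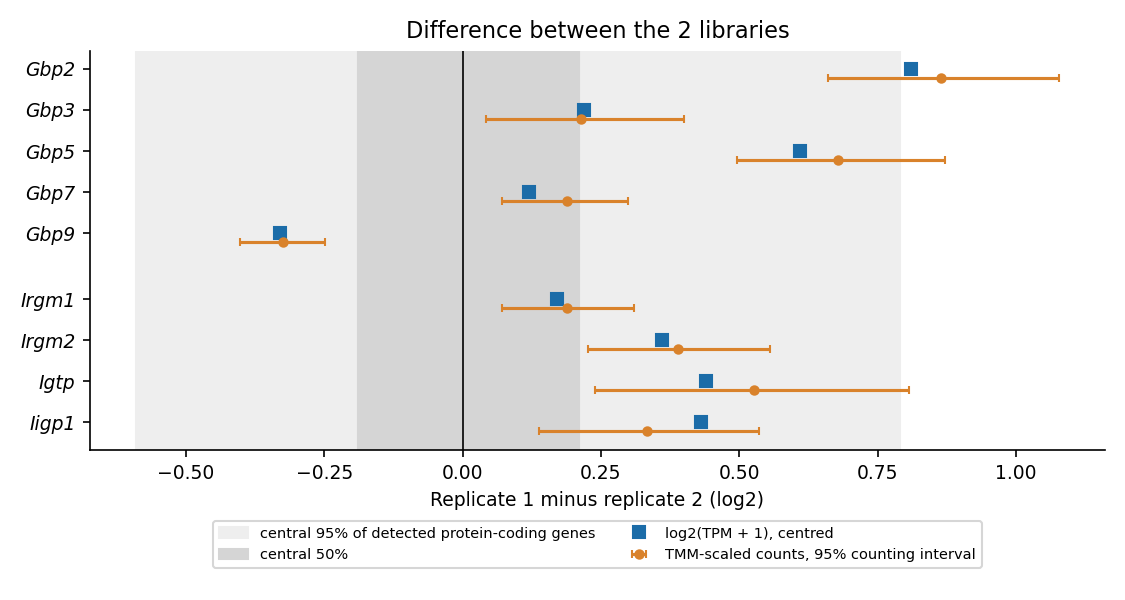
Difference between the libraries (replicate 1 minus replicate 2, log2) for each member: squares are centred log2(TPM + 1), circles are TMM-scaled counts with 95% counting intervals, and the shaded bands hold the central 50% and 95% of detected protein-coding genes. Gbp2 lies above the wider band and Gbp9 is the one member below 0.

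Other measures also differed between the libraries. Replicate 1 started from 1 µg of RNA and replicate 2 from 500 ng. In the gene tables, the 6 macrophage markers had a summed level of 3450 TPM in replicate 1 and of 2140 TPM in replicate 2. Much of this gap was Lyz2, and the other 5 markers summed to 1140 and 926 TPM. Of the 6, 4 were higher in replicate 1 after centring. All 6 were detected, with means of 37 to 1760 TPM. In the second quantification, before centring, Lyz2, Adgre1 and Cd68 were higher in replicate 1, and Csf1r, Itgam and Mertk in replicate 2. Lyz2 had 888 and 701 TPM there, and Csf1r 311 and 370 TPM, in replicates 1 and 2. In the gene tables, markers of B cells (0 of 3 detected), T and NK cells (0 of 4), neutrophils (0 of 4) and fibroblasts (0 of 4) summed to at most 1.1 TPM in either library. Cd3e, Trac, Ncr1, Ly6g, Elane and Pdgfra had 0 counts in both. Of 3 endothelial markers Kdr was detected, at 5.51 and 4.35 TPM in replicates 1 and 2. The second quantification also put Cd3d, a T cell marker, at 2.53 and 10.1 TPM and Pecam1, an endothelial marker, at 2.45 and 7.18 TPM. The gene tables had Cd3d at 0 and 0.1 TPM and Pecam1 at 0.42 and 0.69 TPM in replicates 1 and 2. The part of these differences in the members' levels was not tested, and in bulk RNA fewer cells of a type and less RNA per cell cannot be told apart.

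The second quantification gave a lower mean TPM for 8 of the 9 members, and its TPM over that of the gene table had a median of -0.49 (log2) over detected protein-coding genes. Before centring, 3 of the 9 members were higher in replicate 1 in the second quantification, where the median gene stood at -0.37 between replicates. After centring it was again 8 of 9, with Gbp9 at -0.28 and a median of 0.19. Iigp1 was the member that differed most between the quantifications: it received 1392 and 946 counts in the second quantification, against 623 and 295 in the gene table, in replicates 1 and 2. Scaled to library totals this was a log2 difference of 0.71 and 0.85, and the other members lay between -0.29 and 0.30. Over detected protein-coding genes the median of this difference was -0.02, and the central 95% reached up to 1.22. The related gene Gm4841 had 0.75 and 0.71 TPM in the gene table and 3.41 and 5.13 TPM in the second quantification, for replicates 1 and 2. In TPM, Iigp1 had 10.3 and 12.9 in the second quantification, against 13.2 and 8.81 in the gene table. Gm4951 and F830016B08Rik, other IRG genes of chromosome 18, had a lower TPM in the second quantification. The median detected protein-coding gene was also lower in TPM there, at -0.49 (log2). In the second quantification Gm4951 had 7.53 and 9.93 TPM, against 13.1 and 10.1 TPM in the gene table. F830016B08Rik had 3.22 and 7.26 TPM there, against 5.43 and 9.19 TPM.

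The pathways around the members were described from lists chosen with earlier results known. Receptors and signalling proteins of interferon were all detected, 12 of 12, with a median of 47.5 TPM. Stat2, a transcription factor of type I interferon signalling, had 101 and 102 TPM in replicates 1 and 2. Irf8, a myeloid transcription factor, had 77.7 and 65.1 TPM. The lowest of the list was Jak2, a kinase of the interferon gamma receptor, at 10.4 and 11.3 TPM. The median of this list was above the level of every member.

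Of the 2 interferons none was detected. No count fell on Ifng in either library (0 counts). An upper limit of 3 counts was set for such cases, which is not a hard maximum. For Ifng it equals 0.235 TPM in replicate 1 and 0.357 TPM in replicate 2. Ifnb1 had 10 counts (0.85 TPM) in replicate 1 and 0 counts in replicate 2, where the same limit equals 0.386 TPM. These limits cover counting error only.

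Enzymes that prenylate proteins, the modification by which several GBPs attach to membranes, were detected in 5 of 5 cases. Pggt1b, the beta subunit of the enzyme GGTase I, had 24.6 and 20.6 TPM in replicates 1 and 2, Fnta, the shared alpha subunit, 9.83 and 8.26 TPM, and Rce1, the protease that trims the tail, 7.21 and 4.9 TPM. Fntb, the farnesyltransferase beta subunit, was lowest at 1.53 and 2.06 TPM. The prenylation list thus had a median, 6.05 TPM, below that of the members.

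The ATG8 proteins and the enzymes that conjugate them, which help place IRG and GBP on vacuoles, were detected in 9 of 10 cases. Gabarap had 59.9 and 56.3 TPM in replicates 1 and 2, Atg7, which activates ATG8 proteins, 42.2 and 54.2 TPM, and Atg16l1, a subunit of the conjugating complex, 28 and 31.4 TPM. Map1lc3a was not detected, with 2.16 TPM in replicate 1 and 0.69 TPM in replicate 2. The list had a median of 19.2 TPM.

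Genes that tag damaged or foreign vacuoles were detected in 7 of 7 cases. Lgals3, a galectin that binds exposed glycans, had 462 and 342 TPM in replicates 1 and 2. Lgals8, another galectin, had 94.5 and 100 TPM. Traf6, a ubiquitin ligase, was lowest at 9.77 and 9.12 TPM.

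Genes of the caspase-11 and AIM2 pathways, in which GBPs expose bacterial products, were detected in 6 of 6 cases. Gsdmd, which forms the pores of pyroptosis, had 77.7 and 66.2 TPM in replicates 1 and 2. Aim2, the sensor of cytosolic DNA, had 62.8 and 80.3 TPM, and Casp4, the mouse gene of caspase-11, 30.1 and 24.2 TPM. Pycard, the adaptor ASC, was lowest at 12.4 and 10.3 TPM. These lists are described by their counts and medians, beside 46.1% of protein-coding genes detected, and no test of them was made.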

How the data were processed

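The authors deposited 2 quantifications of each library on mm10 with GENCODE M21, 1 as gene and transcript tables and 1 as transcripts alone. No source used here names the programs, but the column names fit RSEM and, for the second quantification, kallisto. The deposited expected counts are estimates and were rounded for TMM (edgeR 4.0.16, R 4.3.3) and DESeq2 1.42.0 size factors. The deposited TPM are scaled within each table, and the deposited FPKM served as an alternative. The deposited posterior SD of the count and the bounds of the TPM interval are signals that are never negative.

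Values cover the 55450 gene identifiers in both kinds of table; other entries held 1.3% and 0.522% of counts in replicates 1 and 2. Library differences used a pseudocount of 1. With 2 libraries of 1 group no p-value was computed, and no comparison between conditions exists. Count intervals are exact binomial 95% intervals. Motif search, words of 50 bases, and alignments used Python 3.11.15, pandas 2.3.3, scipy 1.17.1 and Biopython 1.88, and known answers were checked. Named genes are, by rule, all members, other family genes detected (the others by their range), and the 3 highest and the lowest of each pathway list. Undetected family genes, overlapping genes and marker genes are also named, chosen after their values were seen. Some genes that this rule allows are not reported here. Members and lists were chosen with earlier results of these data known.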

Additional observations from a re-analysis of the deposited data

How the results depend on the processing

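All 9 members were detected at 0.1 TPM, 5 TPM, 10 expected counts, by the second quantification, by posterior mean TPM, and in either library alone. The log2 ratio of summed GBP to IRG became -0.43 when 6 other GBP and 13 other IRG genes were added. It became 0.27 when medians of the members replaced sums. Left to 1 library, it ranged from 0.32 to 0.51. The median library difference of the members, 0.36, was 0.19 by the second quantification and 0.49 by posterior mean TPM, and stayed between 0.33 and 0.40 under the other scalings. It kept its sign, and 8 of 9 members were higher in replicate 1 under all 6 other settings tried. The median non-coding share, 1.14%, was 4.05% by the second quantification and ranged from 0% to 2.27% with 1 library. The median uncertainty of assignment, 0% at the gene level, was 6.41% for the most abundant transcript. Mean levels were 0.494 to 1.06 times as high by the second quantification, and 2.03 to 2.04 times when mitochondrially encoded genes and the 10 highest genes were left out of the TPM scale. Other family genes detected ranged from 14 to 19 and pathway genes from 36 to 40 over thresholds and quantifications. The causes were not tested. With 2 libraries the spread rests on 1 difference for each gene, and a member at 149 counts (Igtp, replicate 2) carries the widest counting interval relative to its size. No paired analysis was possible because the labels give 1 group.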
